A study of Mus musculus with 12 samples.

Results

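Leukotrienes, prostaglandins and platelet-activating factor (PAF) are lipid mediators that cells make on demand from membrane phospholipids. Arachidonic acid freed by a phospholipase is turned into leukotriene A4 by 5-lipoxygenase with its helper FLAP, or into prostaglandin H2 by the cyclooxygenases, and terminal synthases then make each mediator. In the gut, the branch to cysteinyl leukotrienes and the branch to prostaglandin D2 are well known from tuft cells, the rare chemosensory cells of the epithelium, and from mast cells and other leukocytes. In the distal colon of mice with and without Sprouty2 in the intestinal epithelium, 10 genes of these branches were followed: Alox5, Alox5ap, Ltc4s, Lta4h, Ptgs1, Ptgs2, Hpgds, Ptges, Hpgd and Lpcat2. They were picked by gene symbol, all 10 were found among 35240 gene symbols, and all 10 reached the mean of 0.5 normalized TPM that was required for testing.

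RNA came from full-thickness distal colon of 12 mice, 6 Spry2IEKO (Vil1::Cre;Spry2-f/f) and 6 Spry2FF littermates (Spry2-f/f), so both groups carried the floxed alleles and none was treated. The villin promoter drives Cre in the intestinal epithelium, while muscle, stroma and leukocytes of the wall were in every sample. Each of litters A and B gave 3 mice of each genotype. By sex, 1 of the Spry2IEKO and 3 of the Spry2FF mice were male and the rest female, and the labels give 6 weeks of age in one protocol and 8 weeks in another. Each value is normalized TPM, a transcript's share of all transcripts corrected for length and scaled once more between mice, summed over the transcripts of a gene. Levels may thus be compared between genes, but the number of reads behind them is not known.

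As a check of the genotypes, Spry2 lay between 18.5 and 22.5 in Spry2IEKO mice, with a median of 19.3, and between 22.8 and 32.3 in Spry2FF mice, with a median of 28.4. The groups did not overlap, although muscle and stroma keep the gene. Tuft cell genes were present in all mice. The tuft list counted 12 of 15 genes above the minimum, and its sum without Cd24a, which many other epithelial cells also make and which was set aside after its level was seen, was 24.9 to 53.1 in Spry2IEKO and 12.3 to 30.5 in Spry2FF mice (exact permutation p = 0.00649). With Cd24a the sums were 189.0 to 420.0 and 240.5 to 307.4 (exact p = 0.186). The mast cell list counted 4 of 12 genes above the minimum, and its sum was 27.8 to 59.2 in Spry2IEKO and 19.3 to 28.9 in Spry2FF mice (exact p = 0.00649). Most of it was Kit, a receptor that other cells of the wall also make, at 18.5 ± 3.80 (SD, n = 12), and Cma1, a chymase gene, at 10.1 to 31.7 in Spry2IEKO and 3.33 to 9.06 in Spry2FF mice (limma adjusted p = 0.0350). Of the other mast cell markers, Tpsab1 and Fcer1a were listed at 0 in all 12 mice and Cpa3 reached at most 0.306. Eosinophil and neutrophil markers were near 0, with list sums of at most 3.89 and 0.966. In such bulk tissue, more cells of a type and more RNA per cell cannot be told apart.

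The levels of the 10 genes spanned a wide range. Hpgd, the dehydrogenase that starts the inactivation of prostaglandins, was the most abundant, with a mean of 231.9 ± 13.9 normalized TPM (SD, n = 12 mice). Lta4h followed with 124.3 ± 11.99. A middle tier held Ptgs1 (17.6 ± 4.07), Hpgds (16.5 ± 4.12), Lpcat2 (14.2 ± 3.40) and Alox5ap (10.2 ± 5.06), whose ranges over mice overlapped. Ptges (4.03 ± 1.17), Ltc4s (2.31 ± 1.07), Alox5 (1.49 ± 0.762) and Ptgs2 (1.14 ± 0.276) were low. The spread between mice differed as much as the level. The coefficient of variation was 6.01% for Hpgd and 9.65% for Lta4h, but 51.1% for Alox5, 49.4% for Alox5ap and 46.1% for Ltc4s. The plot of the 10 genes by mouse shows these levels.

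**Figure D1:**
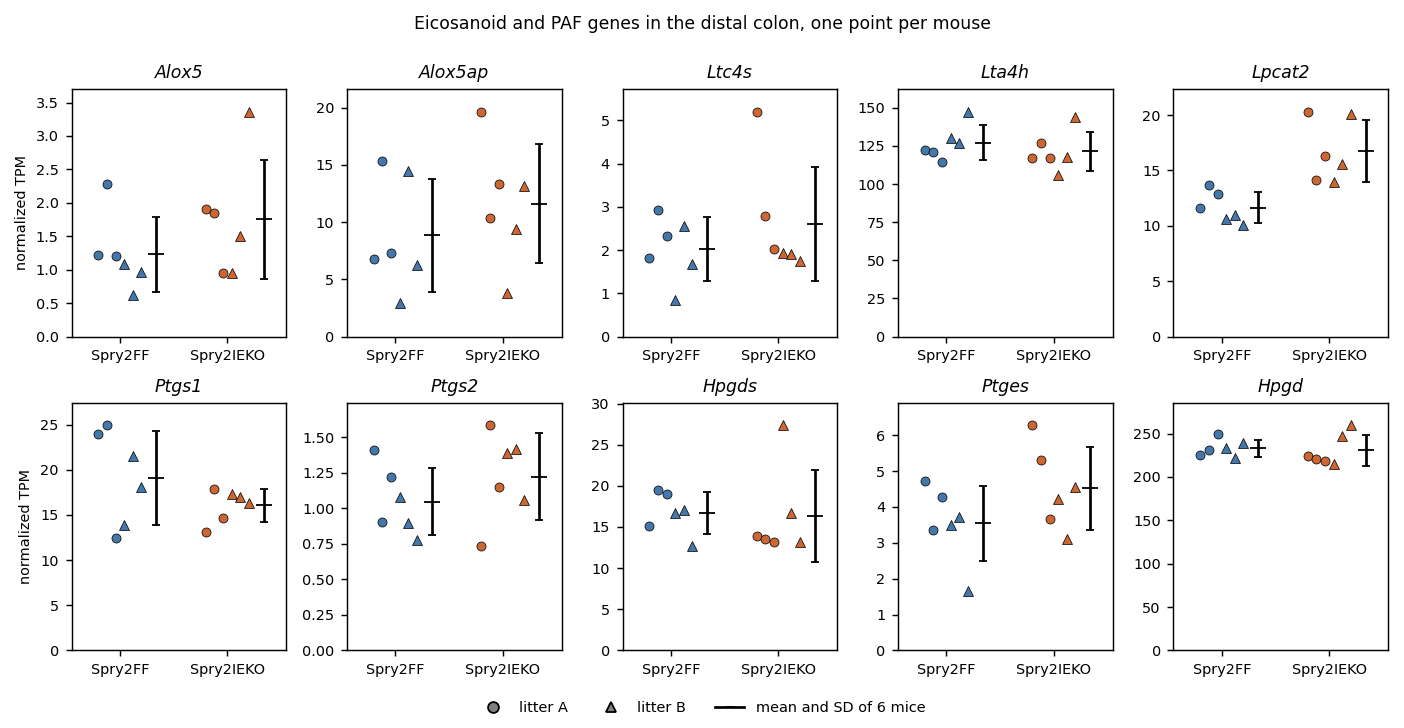
Normalized TPM (vertical axes, from 0) of the 10 genes in the 6 Spry2FF (blue) and 6 Spry2IEKO (orange) mice, one point per mouse, circles for litter A and triangles for litter B, with the mean and SD beside them. Lpcat2 is the gene whose groups do not overlap, at 10.1 to 13.7 in Spry2FF and 13.96 to 20.3 in Spry2IEKO mice.

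To ask whether loss of epithelial Sprouty2 moved these genes, log2(value + 0.5) was compared between genotypes by limma across 15879 genes. None of the 10 passed an adjusted p of 0.05, the threshold that 5 of all genes tested (0.0315%) passed. At an unadjusted p of 0.05, 1 of the 10 passed, against 6.18% of all genes, and it was the only 1 of the 10 with an exact permutation p under 0.05. This was Lpcat2. On the log2 scale, 6 of the 10 were higher and 4 lower in Spry2IEKO mice, with a median difference of 0.21, beside 0.00756 over all genes tested. With 3 mice of each genotype per litter, no member had an interaction of genotype and litter (limma, smallest adjusted p = 0.998, none at an unadjusted p of 0.05).

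Lpcat2 encodes an acyltransferase of the endoplasmic reticulum and lipid droplets that makes PAF from lyso-PAF and also rebuilds phosphatidylcholine, and is best known from inflammatory cells. The gene lies on chromosome 8 at 92855339 to 92919279 of GRCm38. In Spry2IEKO mice Lpcat2 had a low of 13.96, a median of 15.99 and a high of 20.3. In Spry2FF mice it had a low of 10.1, a median of 11.3 and a high of 13.7. Every Spry2IEKO mouse was above every Spry2FF mouse, which held in this direction for 30 of all genes tested (0.189%). The ratio of means was 1.44, the log2 difference was 0.50 ± 0.12 (SE) with a limma adjusted p of 0.322, and the exact permutation p was 0.00216, the smallest that 6 against 6 mice allow. Exchanging mice only within litters gave an exact p of 0.005, again the smallest possible. By litter the log2 difference was 0.39 (A) and 0.61 (B). With Trpm5 added to the fit as a covariate, an alternative chosen after the data were seen, it was 0.29 (adjusted p = 0.789).

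Goblet, tuft and mast cell lists moved with Lpcat2. All 6 goblet cell markers were higher in Spry2IEKO mice, 5 of them at an unadjusted p of 0.05 and none at the adjusted threshold. Their sum was 7405 to 14220 in Spry2IEKO and 5793 to 9551 in Spry2FF mice (exact p = 0.0108). The 3 genes most like Lpcat2 over the 12 mice were Ano7 (r = 0.944), Zg16 (r = 0.924) and Rassf6 (r = 0.917), of which Zg16, a lectin of goblet cell granules, is itself on the goblet list. As a description over the same 12 libraries, r of Lpcat2 was 0.926 with the tuft sum without Cd24a, 0.689 with that sum with Cd24a, 0.902 with the goblet sum and 0.836 with the mast cell sum. On the log2 scale, all 9 colonocyte markers were lower in Spry2IEKO mice. Of these, 5 passed an unadjusted p of 0.05 and none the adjusted threshold. The mean of Aqp8, on this list, was yet 560.4 in Spry2IEKO and 548.2 in Spry2FF mice. The colonocyte sum was 4469 to 9193 in Spry2IEKO and 6000 to 8762 in Spry2FF mice (exact p = 0.132). Its r with Lpcat2 was -0.434. The part of a changed share of any of these cells in the Lpcat2 difference was not tested.

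The 2 main transcripts of Lpcat2 did not share this difference. They were ENSMUST00000209265.1, which GENCODE labels as a target of nonsense-mediated decay and which made up 44.5% of the summed value, and ENSMUST00000046290.2, which is protein coding and made up 42.8%. The decay transcript lacks exon 5 of 14, a stretch of 61 bases at positions 92873048 to 92873108 of chromosome 8. Since 61 is not a multiple of 3, the reading frame shifts, and its annotated coding sequence stops in its exon 6 after 236 codons in place of 544. It also begins 56 bases later and ends 456 bases earlier. The junctions are shown because reads across them set the transcripts apart. Exon 5 is in capitals, between the last 20 bases of exon 4 and the first 20 of exon 6, 5′ to 3′ on the plus strand:
coding transcript: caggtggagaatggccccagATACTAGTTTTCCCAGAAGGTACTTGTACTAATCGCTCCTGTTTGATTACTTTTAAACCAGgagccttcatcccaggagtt
decay transcript: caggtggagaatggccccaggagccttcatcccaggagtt

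The decay transcript had a low of 5.64, a median of 7.56 and a high of 11.1 in Spry2IEKO mice, and a low of 3.49, a median of 4.80 and a high of 5.08 in Spry2FF mice. The groups did not overlap, as in this direction for 47 of 45368 transcripts tested (0.104%), and the exact permutation p was 0.00216. In a limma fit over all transcripts, added after these values were seen, its log2 difference was 0.70 with an adjusted p of 0.822, and 0.0022% of transcripts passed at 0.05. The coding transcript lay between 5.26 and 6.91, median 6.71, in Spry2IEKO and between 4.14 and 7.86, median 5.44, in Spry2FF mice. Its groups overlapped, with means of 6.34 ± 0.735 and 5.80 ± 1.44 (SD, n = 6) and an exact permutation p of 0.429. The decay form was 55.1% ± 6.79 of the sum of both in Spry2IEKO and 45.0% ± 8.34 in Spry2FF mice (SD, n = 6, exact permutation p = 0.0411). Short reads are divided between such transcripts by estimation, and an error of that division is not in these values.

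**Figure D2:**
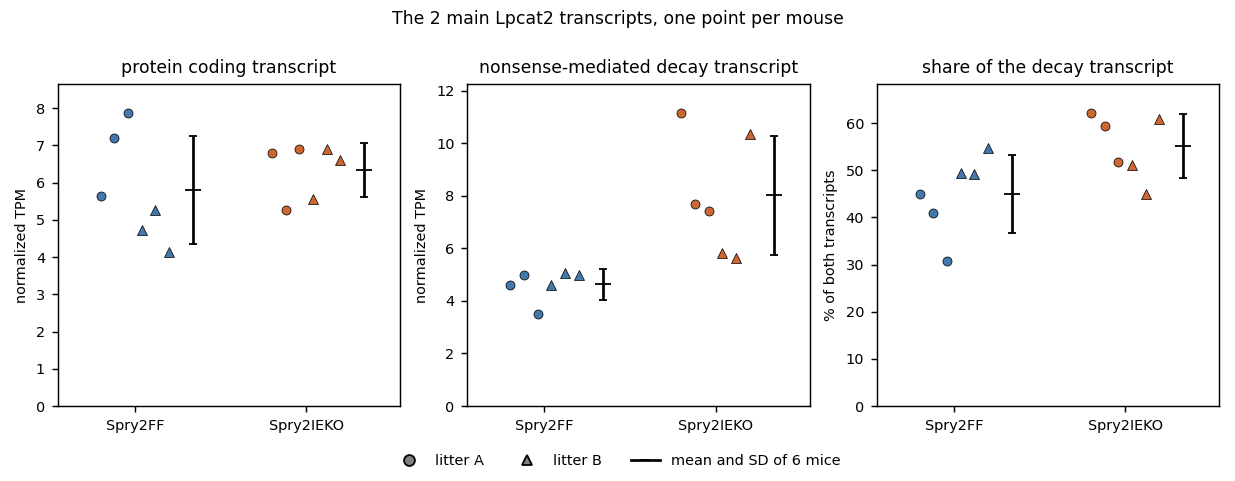
Level of the protein coding Lpcat2 transcript and of the decay transcript (normalized TPM), and the share of the decay transcript in the sum of both (%), one point per mouse with the mean and SD of 6 mice, circles for litter A and triangles for litter B. The decay transcript lies between 5.64 and 11.1 in Spry2IEKO and between 3.49 and 5.08 in Spry2FF mice, while the coding transcript overlaps between the groups.

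Alox5 encodes 5-lipoxygenase, which makes leukotriene A4, and lies on chromosome 6 at 116410077 to 116461178. In Spry2IEKO mice it had a low of 0.944, a median of 1.67 and a high of 3.36. In Spry2FF mice it had a low of 0.624, a median of 1.15 and a high of 2.29. The groups overlapped broadly and 1 Spry2IEKO mouse was above all Spry2FF mice. The log2 difference was 0.35 ± 0.27 (SE, limma adjusted p = 0.880), being 0.00317 among litter A mice and 0.70 among litter B mice, and it turned to -0.039 with Trpm5 as a covariate.

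Alox5ap encodes FLAP, the membrane protein that presents arachidonic acid to 5-lipoxygenase, and lies on chromosome 5 at 149264767 to 149288153. It varied between 3.84 and 19.6 in Spry2IEKO mice, median 11.7, and between 2.95 and 15.4 in Spry2FF mice, median 7.05. Both groups held mice at either end of the range. The log2 difference of 0.42 ± 0.40 (SE, limma adjusted p = 0.899) was close to its error, and with Trpm5 as a covariate it turned to -0.44.

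Ltc4s encodes leukotriene C4 synthase, which adds glutathione to leukotriene A4, and lies on chromosome 11 at 50236461 to 50238616. It lay between 1.76 and 5.20 in Spry2IEKO mice, median 1.98, and between 0.843 and 2.92 in Spry2FF mice, median 2.07. A single mouse, Spry2IEKO mouse 4, accounted for the upper end. The medians ran against the means, and the log2 difference was 0.28 ± 0.27 (SE, limma adjusted p = 0.900). Lta4h, the hydrolase that makes leukotriene B4 from the same intermediate (chromosome 10, 93453411 to 93484875), was between 105.6 and 144.1 in Spry2IEKO and between 114.6 and 147.5 in Spry2FF mice. It was thus about as high in both, with a log2 difference of -0.07 ± 0.08 (SE, limma adjusted p = 0.919).

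Among the cyclooxygenases, the constitutive Ptgs1 (chromosome 2, 36230426 to 36252272) exceeded the inducible Ptgs2 (chromosome 1, 150100031 to 150108227) in every mouse. Ptgs1 ran from 13.1 to 17.9, median 16.7, in Spry2IEKO mice and from 12.4 to 24.9, median 19.8, in Spry2FF mice. No Spry2IEKO mouse reached the Spry2FF median, but the groups overlapped and the log2 difference was -0.21 ± 0.17 (SE, limma adjusted p = 0.887). Ptgs2 ran from 0.737 to 1.58, median 1.27, in Spry2IEKO and from 0.777 to 1.41, median 0.990, in Spry2FF mice. Its log2 difference was 0.15 ± 0.18 (SE, limma adjusted p = 0.919).

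Hpgds encodes the hematopoietic prostaglandin D2 synthase (chromosome 6, 65117293 to 65144908). It ran from 13.2 to 27.4, median 13.7, in Spry2IEKO and from 12.7 to 19.5, median 16.9, in Spry2FF mice. All Spry2IEKO mice but mouse 8, the male of that group, were below the Spry2FF median, and the log2 difference was -0.07 ± 0.17 (SE, limma adjusted p = 0.964). Ptges, the inducible prostaglandin E synthase (chromosome 2, 30889471 to 30929863), ran from 3.10 to 6.28, median 4.38, in Spry2IEKO and from 1.65 to 4.73, median 3.61, in Spry2FF mice. In 5 of 6 Spry2IEKO mice it was above the Spry2FF median, with a log2 difference of 0.33 ± 0.22 (SE, limma adjusted p = 0.847). Hpgd (chromosome 8, 56294585 to 56321043) had a single transcript and ran from 214.4 to 259.4 in Spry2IEKO and from 221.4 to 249.0 in Spry2FF mice. Its log2 difference was -0.02 ± 0.06 (SE, limma adjusted p = 0.977), the smallest of the 10.

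Between litters, again none of the 10 passed in limma with genotype as a covariate, while 696 of all genes did (4.38%). At an unadjusted p of 0.05, 1 of the 10 passed, a smaller share than the 21.9% of all genes. This was Ltc4s. Litter A mice had 2.85 ± 1.23 and litter B mice 1.78 ± 0.551 (SD, n = 6, exact permutation p = 0.0411), with a log2 difference of -0.53 ± 0.23 for B minus A (SE, limma adjusted p = 0.212). Alox5ap differed by -0.62 ± 0.38 (adjusted p = 0.355) and Ptges by -0.39 ± 0.19 (adjusted p = 0.262) on that scale. Markers of the wall moved with litter too: 4 of 5 endothelial and 4 of 6 fibroblast markers passed the adjusted threshold as lower in litter B, while of 5 smooth muscle markers 0 had an unadjusted p under 0.05 between litters. Of 11 macrophage markers, 7 had an unadjusted p under 0.05 between litters, and the median log2 difference of the list was -0.72. Among them Cd68 passed the adjusted threshold as lower in litter B (adjusted p = 0.0257). As a description, r of Ltc4s was 0.848 with the endothelial sum, 0.817 with the macrophage sum, 0.684 with the fibroblast sum and -0.25 with the smooth muscle sum. The part of any of these cells in the Ltc4s difference was not tested. The litters also carry different library-name prefixes, and litter cannot be told apart from what these mark.

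**Figure D3:**
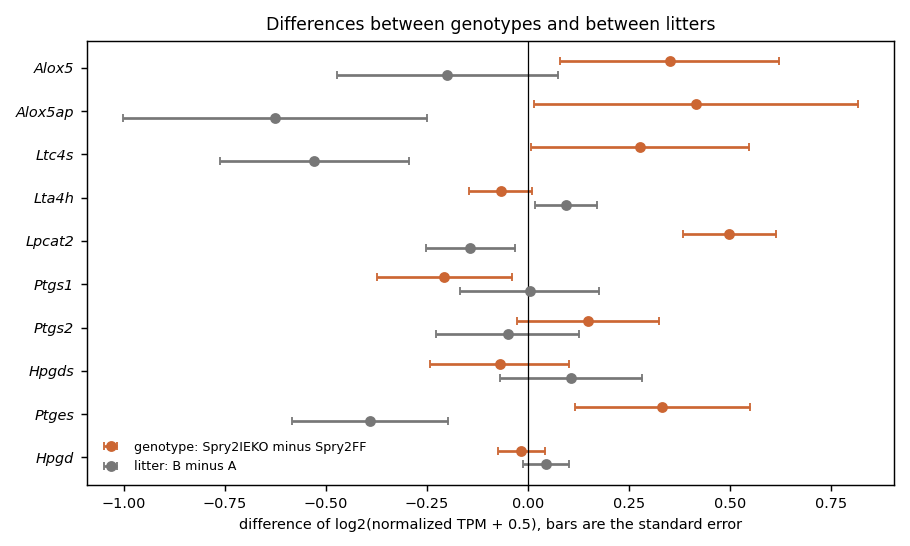
Differences of log2(normalized TPM + 0.5) for the 10 genes between genotypes (orange, Spry2IEKO minus Spry2FF) and between litters (grey, B minus A), with standard errors from limma. Lpcat2, at 0.50, lies farthest from 0 relative to its error between genotypes, and Ltc4s, at -0.53, between litters.

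Each gene was then set against Trpm5 and Rgs13, a channel and a G protein regulator of tuft cells, and against Ptprc, the CD45 phosphatase of leukocytes that some tuft cells carry as well. Trpm5 ran from 1.53 to 3.92 in Spry2IEKO and from 1.33 to 2.41 in Spry2FF mice, and Rgs13 from 1.38 to 8.89 and from 0.240 to 3.74. Ptprc ran from 3.56 to 53.5 and from 1.65 to 22.4. Thus Ptprc varied widely within both genotypes, and it was highest in Spry2IEKO mouse 4. The markers were not independent: Rgs13 had r = 0.726 with Trpm5 and 0.685 with Ptprc. Rgs13 rose with the tuft genes Gnat3 (r = 0.956) and Sh2d7 (r = 0.905), but also with Kit (r = 0.901) and the T cell gene Cd3g (r = 0.847). A relation with Rgs13 thus does not set tuft cells apart from leukocytes. Of 30 relations, 2 passed in limma after adjustment over all genes: Alox5ap rose with Ptprc, as did 3.24% of all genes, and Lpcat2 rose with Rgs13, as did 0.365%. No gene passed for Trpm5 (0% of genes tested).

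**Figure D4:**
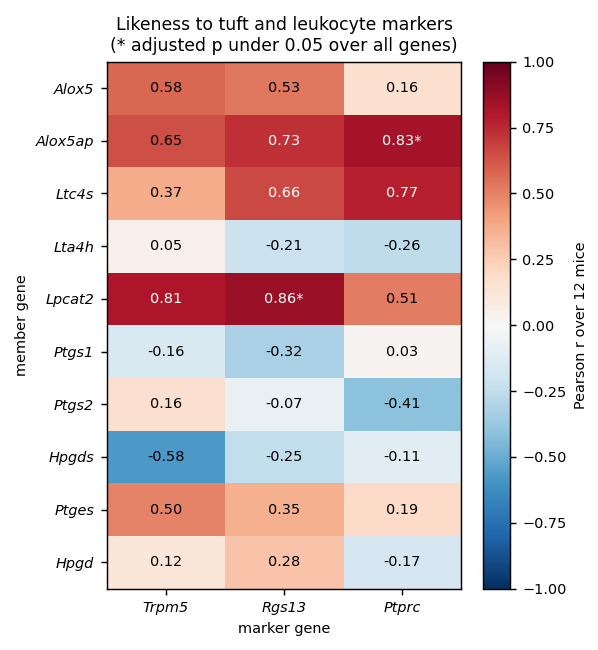
Pearson r over 12 mice of log2(normalized TPM + 0.5) between each of the 10 genes (rows) and Trpm5, Rgs13 and Ptprc (columns), red for positive and blue for negative, with an asterisk where the limma p adjusted over all genes is under 0.05. The asterisks are on Lpcat2 with Rgs13 (0.86) and Alox5ap with Ptprc (0.83), and Hpgds with Trpm5 (-0.58) is the most negative value.

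Alox5ap followed Ptprc with Pearson r = 0.830 (permutation p = 0.00088, 0.0130 adjusted over the 30 relations) and Spearman rho = 0.930 (permutation p = 5e-05). The limma p adjusted over all genes was 0.00652, and 2.67% of genes had a higher r. The sign of r was the same in both genotypes, with 0.682 in Spry2IEKO (exact p = 0.131) and 0.927 in Spry2FF mice (exact p = 0.00694). By litter r was 0.987 for A (exact p = 0.00139) and 0.760 for B (exact p = 0.0875). Without the 2 mice farthest from the median of Ptprc, Spry2IEKO mouse 4 and Spry2FF mouse 3, r was 0.744. With only mouse 4 omitted it was 0.785 and no longer passed (limma adjusted p = 0.0510). With genotype and litter removed it was 0.808 (limma adjusted p = 0.0358). Alox5ap also rose with the tuft marker Rgs13, at r = 0.734 (permutation p = 0.00661, 0.0397 adjusted over the 30 relations), although the limma p over all genes was 0.120 and r was 0.448 without the 2 farthest mice. With Trpm5, r was 0.647 (permutation p = 0.0234, not past 0.05 after adjustment over the 30 relations). As a description, its r was 0.776 with the leukocyte sum and 0.772 with the tuft sum without Cd24a. Among the 3 genes most like Alox5ap were Gramd1a (r = 0.952) and Itgax (r = 0.929), the integrin CD11c of dendritic cells and macrophages.

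Ltc4s came next with Ptprc, at r = 0.775 (permutation p = 0.00135, 0.0130 adjusted over the 30 relations) and rho = 0.783 (permutation p = 0.00374), but its limma p over all genes was 0.0595. It was 0.642 without Spry2IEKO mouse 4 (adjusted p = 0.601) and 0.563 without the 2 farthest mice. With Rgs13, r of Ltc4s was 0.660 (permutation p = 0.0177, 0.0884 adjusted over the 30 relations), 0.857 within Spry2FF mice (exact p = 0.0333), and 0.0214 without the 2 farthest mice. With Trpm5 it was 0.369. Alox5ap and Ltc4s, which encode related membrane proteins, also had the highest r with each other of the 45 pairs of members, 0.774. Alox5, whose product works with both, had r = 0.162 with Ptprc and 0.422 with Alox5ap. Leukocyte genes moved as a body with Ptprc: 7 of the 8 leukocyte markers, Ptprc being the other, and all 4 B cell markers passed. The sum of B cell markers was 66.8 to 269.9 in 5 mice (Spry2FF mice 3 and 10, Spry2IEKO mice 4, 6 and 11) and at most 9.56 in the other 7. The part of lymphoid tissue in the Alox5ap and Ltc4s levels was not tested.

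Lpcat2 followed Rgs13 with r = 0.862 (permutation p = 0.00036, 0.0108 adjusted over the 30 relations) and rho = 0.881 (permutation p = 0.00026). The limma p adjusted over all genes was 0.0469, and over 17 alternative settings it ran from 0.0417 to 0.385 and stayed under 0.05 in 3, while r ran from 0.712 to 0.891. Within genotypes r was 0.785 in Spry2IEKO (exact p = 0.0681) and 0.763 in Spry2FF mice (exact p = 0.0792). Among litter A mice it was 0.910 (exact p = 0.0208) and among litter B mice 0.825 (exact p = 0.0569). With Trpm5, r was 0.810 and rho 0.874 (permutation p = 0.00173 and 0.00045), with a limma p of 0.250 over all genes, and with Ptprc it was 0.509. Without the 2 farthest mice the values were 0.805 for Rgs13 and 0.727 for Trpm5. The median of the goblet markers' own r with Rgs13 was 0.841, and 3 of the 6 passed the same threshold.

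**Figure D5:**
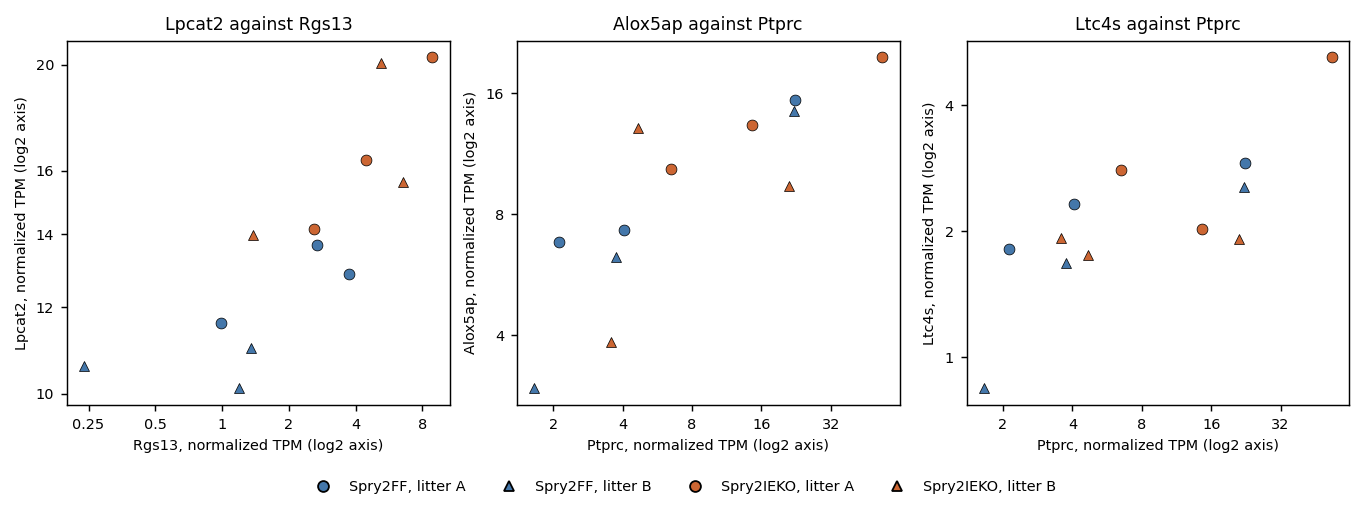
Lpcat2 against Rgs13, Alox5ap against Ptprc and Ltc4s against Ptprc, in normalized TPM on log2 axes, one point per mouse, blue for Spry2FF and orange for Spry2IEKO, circles for litter A and triangles for litter B. Each rises from lower left to upper right, and Spry2IEKO mouse 4 is the point at the upper right of all 3 panels.

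The other members followed neither kind of marker past the threshold. Alox5 had r = 0.575 with Trpm5 and 0.530 with Rgs13 (permutation p = 0.0499 and 0.0761). With Trpm5 its sign differed by litter, at -0.306 for A (exact p = 0.571) and 0.900 for B (exact p = 0.0333). Ptges had 0.496 and 0.353, and Ptgs1, Ptgs2, Lta4h and Hpgd stayed between -0.324 and 0.283 with both. Hpgds ran the other way, with r = -0.578 with Trpm5 (permutation p = 0.0435, 0.163 adjusted over the 30 relations) but rho = -0.427 (permutation p = 0.169). In the Spry2IEKO group r was -0.953 (exact p = 0.00278) and in the Spry2FF group 0.183 (exact p = 0.729). By litter it was -0.95 for A (exact p = 0.00556) and -0.393 for B (exact p = 0.442). Without the 2 farthest mice it was -0.438. Hpgds was most like Tcf7l2 (r = 0.889), Rps6ka2 (r = 0.885) and Shank2 (r = 0.875), none of them a tuft or leukocyte marker.

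The promoters of the members were searched for the POU octamer ATGCAAAT, since the tuft cell factor Pou2f3 belongs to the factors that bind it, and for TATAAA, on both strands. RefSeq sequences of GRCm38.p6, 250 bases before to 50 after the start, were at hand for 9 of the 10 members. Hpgds was the 1 of 9 with the octamer, which 1.74% of all 32851 promoters hold, and 2 of 9, Hpgd and Lpcat2, held TATAAA, against 13.6%. The RefSeq start of Hpgds lies downstream of the start of the GENCODE gene at 65144908, and the octamer falls inside the GENCODE gene. In capitals, it begins 174 bases before the RefSeq start, here with 30 bases on either side, on the minus strand at chr6:65144867-65144934:
Hpgds: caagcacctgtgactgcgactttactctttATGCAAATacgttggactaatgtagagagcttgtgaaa
The match is of letters only, and Hpgds levels did not rise with Trpm5.

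Of 71 other genes of these pathways, 58 reached the minimum. In limma none passed between genotypes. At an unadjusted limma p of 0.05, 2 of the 58 passed, against 6.18% of all genes. In the exact test 1 passed, against 955 of all 15879 genes. Of the 58, 30 were higher and 28 lower. Their median log2 difference was 0.00487. The lowest unadjusted p belonged to Pla2g2a, a secreted phospholipase of Paneth cells, at 6.74 ± 4.11 in Spry2IEKO and 2.78 ± 1.11 in Spry2FF mice (SD, n = 6, exact permutation p = 0.0216, limma adjusted p = 0.752). Alox15, a 12/15-lipoxygenase, was 1.42 ± 0.604 and 2.72 ± 1.37 (exact p = 0.0541). Mgst2, a microsomal enzyme that can also make leukotriene C4, was far above Ltc4s at 244.2 ± 35.2 and 213.8 ± 24.6. Dpep1, a dipeptidase that turns leukotriene D4 into E4, was 21.6 and 30.1 on average. Between litters 2 of the 58 passed, against 4.38% of all genes, both lower in B: Pla2g2f, a secreted phospholipase (34.5 ± 4.53 in A, 25.6 ± 3.36 in B, adjusted p = 0.0344), and Pafah2, a PAF hydrolase (33.7 ± 2.25 and 26.7 ± 2.51, adjusted p = 0.0304). None of the 9 genes of PAF synthesis and breakdown beside Lpcat2 was at an unadjusted p of 0.05 between genotypes.

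Of 16 receptors, 11 reached the minimum and none passed between genotypes or litters. Those for prostaglandin E2 led, Ptger4 at 11.1 ± 0.634, Ptger3 at 10.3 ± 3.17 and Ptger1 at 3.16 ± 2.34 (SD, n = 12). The PAF receptor Ptafr was at 1.41 ± 0.476, with 1.65 ± 0.427 in Spry2IEKO and 1.16 ± 0.413 in Spry2FF mice (SD, n = 6, exact permutation p = 0.0736). The cysteinyl leukotriene receptors Cysltr2 and Cysltr1 were at 1.15 ± 0.733 and 1.02 ± 0.471. Tbxa2r (1.03 ± 0.236), Ptgfr (0.858 ± 0.718), Ptgir (0.698 ± 0.336), Ptger2 (0.679 ± 0.199) and Ptgdr (0.529 ± 0.268) were near the minimum. The leukotriene B4 receptor Ltb4r1 was just below it, at 0.493 ± 0.296.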

How the data were processed

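The whole wall of the distal colon of 12 mice was sequenced as RNA after stranded mRNA library preparation. The authors quantified reads per transcript with kallisto, and the deposited signal values are TPM scaled once more between mice, per the labels and the values (totals of 918816 to 1069158 per mouse). They are not counts, so depth is unknown and no counting error can be given. The build is given as mm10, and the submitters' processing notes name CASAVA, kallisto and sleuth. Deposited columns of a sleuth test (p, q and variance terms) were not used.

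Of 113974 entries, 781 repeats with the same values were dropped, transcripts were summed per gene symbol, and entries without a name took at most 0.0632% of a mouse. Genes averaging 0.5 or more were tested on log2(value + 0.5) by limma 3.58.1 (R 4.3.3, trend, Benjamini-Hochberg over all genes). A fold change on this scale understates that of low genes. Single values had two-sided exact permutation tests (924 divisions, 400 within litters). Correlations used 100000 permutations over 12 mice, or all pairings within groups of 6 (Python 3.11.15, SciPy 1.17.1). The fits were tested on simulated data. A log2 difference of 0.5 between genotypes was recovered in 37% of changed genes, and a difference of 1.0 in 78%. A slope of 0.5 on Ptprc was recovered in 92%. Genotype differences of the members' size could thus be missed. Positions and transcript types are from GENCODE M21 (GRCm38).

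Genes named are the 10 members, the 3 markers, Spry2, the 3 genes most like a member, main transcripts (at least 10% of a gene, described where they differ), and other pathway genes past the threshold or of lowest unadjusted p, with receptors by level. A gene most like Alox5ap is not reported here. The members and lists were chosen with earlier results of these data known.

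Alternatives were pseudocounts of 0.1 and 1, no filter, litter or sex as covariates, females or single litters, a total of 1000000, quantile normalization, the highest transcript, and each mouse left out.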

Additional observations from a re-analysis of the deposited data

Results flagged for a closer look

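Of 20 groups of 6 values examined, 3 held a mouse farther from the rest than Dixon's 95% limit for 6 samples, where chance gives about 1 in 20 groups. Hpgds was 27.4 normalized TPM in Spry2IEKO mouse 8, whose gap to the next mouse was 0.748 of the range of its group. In that mouse, the male of the group, the smooth muscle sum was the highest of the 12 (5640), and the part of that tissue was not tested. Its tuft sum was the lowest of the 12 with Cd24a (189.0) but not without it (24.9, with 4 Spry2FF mice lower). Ltc4s was 5.20 in Spry2IEKO mouse 4, with a gap of 0.698 of the range, in the mouse with the highest Ptprc (53.5) and the highest leukocyte sum (784.2). Alox5 was 2.29 in Spry2FF mouse 3, with a gap of 0.645 of the range.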

How the results depend on the processing

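Between genotypes no member passed the adjusted limma threshold under any alternative run, and for Lpcat2 the difference kept its sign in all 26, from 0.29 to 0.70, with adjusted p from 0.1502 to 0.9389. The count of genes over the whole table fell from 5 to 1 with no filter, with sex as a covariate, in litter A alone and in litter B alone, to 2 in females alone and with quantile normalization, to 3 with Ptprc and 1 with Trpm5 as a covariate, and to 0 without the 2 mice with high fat cell genes (Spry2IEKO 4 and 5), the last 3 added after the data were seen. Over fits that each omit 1 mouse it ran from 1 to 11, the highest without Spry2IEKO mouse 8. Between litters it was 422 with no filter, 1458 with a total of 1000000 and 462 with quantile normalization, and 178 to 957 with 1 mouse left out.

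Lpcat2 no longer passed with Rgs13, leaving 0 members, with a pseudocount of 0.1, with genotype and litter removed, with a total of 1000000 and with quantile normalization. With 1 mouse left out, 0 to 1 members passed with Rgs13 and 0 to 2 with Ptprc, 0 without Spry2IEKO mouse 4 and 2 without Spry2IEKO mouse 11. Counted in both directions, all genes following Rgs13 numbered 65 in the main fit. They numbered 3 with genotype and litter removed, 42 with a total of 1000000 and 40 with quantile normalization. With 1 mouse left out they ran from 1 to 137 (1 without Spry2FF mouse 9, 7 without Spry2IEKO mouse 4). Those following Trpm5 numbered 0 in the main fit, 1 with quantile normalization and 0 to 10 with 1 mouse left out. Those following Ptprc numbered 527 in the main fit and 317 to 574 with 1 mouse left out. The causes were not tested.

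Some differences that never passed changed sign. Between genotypes, with Trpm5 as a covariate, Alox5 was -0.039, Alox5ap -0.44 and Hpgds 0.30. Without the 2 mice with fat, Ltc4s was -0.0062, Hpgds 0.025 and Hpgd 0.0077. In litter A alone, Lta4h was 0.011 and Ptgs2 -0.038, and in litter B alone, Hpgds was 0.24 and Hpgd 0.051. Hpgds was 0.059 with sex as a covariate and 0.092 by its highest transcript. Between litters, a total of 1000000 gave Ptgs1 -0.074 and Hpgd -0.035, and quantile normalization gave Ptgs2 0.0058. With genotype and litter removed, r with Trpm5 was -0.121 for Ltc4s, 0.137 for Ptgs1 and -0.167 for Ptgs2, r with Rgs13 was 0.117 for Lta4h and -0.149 for Ptges, and r with Ptprc was -0.010 for Alox5 and -0.091 for Ptges. Quantile normalization gave r with Ptprc of -0.042 for Alox5, -0.061 for Ptgs1 and -0.038 for Ptges. With 1 mouse left out, Hpgd ran from -0.051 to 0.0042 between genotypes. Between litters Ptgs1 ran from -0.12 to 0.098, Ptgs2 from -0.16 to 0.014 and Hpgds from -0.055 to 0.20. In the same way r with Trpm5 ran from -0.274 to 0.324 for Lta4h and from -0.259 to 0.309 for Hpgd, r with Rgs13 from -0.214 to 0.217 for Ptgs2, and r with Ptprc from -0.164 to 0.319 for Ptgs1, from -0.208 to 0.101 for Hpgds and from -0.114 to 0.286 for Ptges.

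No paired analysis was possible because no replicate number occurs in both genotypes. Depth is unknown, so low genes such as Alox5 and Ptgs2 carry an unmeasured counting error.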

Other observations

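Transcripts within a gene differed in which mice they were high in. For Alox5ap, 3 transcripts held at least 10% of the value each. The full-length coding form ENSMUST00000071130.4 (29.1%) was 3.60 ± 1.004 in Spry2IEKO and 2.36 ± 0.353 in Spry2FF mice (SD, n = 6, exact permutation p = 0.0368, limma adjusted p over transcripts 0.988), and had r = 0.842 with Rgs13 and 0.578 with Ptprc. The processed transcript ENSMUST00000202629.1 (38.2%), which covers only the 3′ end of the gene, had r = 0.584 and 0.643. The shorter coding form ENSMUST00000200806.3 (29.5%) ran the other way in its median, 2.41 in Spry2IEKO and 2.80 in Spry2FF mice (exact permutation p = 0.922), with r = 0.335 and 0.519. For Alox5, the coding form ENSMUST00000026795.12 made up 35.8% of the summed value, at 0.819 ± 0.530 and 0.249 ± 0.252 (exact permutation p = 0.0584), and was listed at 0 in 2 mice. The rest of Alox5 came largely from short transcripts with a retained intron, which were listed at 0 in 8 and 5 mice. These r values are over the same 12 libraries, were chosen after the values were seen, and carry no test.

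Of the 58 other pathway genes tested, 2 followed Ptprc upward past the adjusted limma threshold, about the share of all genes (3.24%). They are named after their values were seen: Pla2g2d, a secreted phospholipase of dendritic cells and macrophages (r = 0.972), and Cyp4f18, which breaks down leukotriene B4 in leukocytes (r = 0.943). Fam213b, a prostanoid synthase gene, passed in the other direction (r = -0.781, limma adjusted p = 0.0330).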
